A study of Homo sapiens with 4 samples.

Results

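Metallothionein transcripts were followed across 4 microarrays of the human colon carcinoma cell line LS180. Members were all probe sets of the Affymetrix HG-U95Av2 array annotated to MT1A, MT1B, MT1E, MT1F, MT1G, MT1H, MT1X or MT2A, which gave 8 of the 12626 probe sets. Of the 8 listed genes, 7 had a probe set of their own (of 8225 genes on the array that did), MT1A had none, and the remaining probe set was annotated jointly to MT1F, MT1G, MT1M and the pseudogene MT1P3. RBM35A, now called ESRP1, is an epithelial RNA-binding protein that regulates splicing. The study asked how its expression alters total mRNA and the mRNA carried by polysomes, which are transcripts loaded with several ribosomes. RBM35A+ cells were LS180 cells with a Tet-off RBM35A construct kept without doxycycline for at least 6 days, and RBM35A− cells were described as parental and kept in doxycycline. Total RNA and sucrose-gradient polysomal RNA were taken from each state, giving 4 groups of 1 array. PolyA RNA is the labelled molecule of the polysomal samples, and the labels do not say whether the RBM35A− cells carried the construct. Doxycycline, RBM35A and any difference between the lines therefore cannot be told apart, and the labels give no number of clones. In bulk RNA, fewer expressing cells and less RNA per cell cannot be told apart either.

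Metallothioneins are small, cysteine-rich proteins that bind zinc and copper and also take up cadmium and other toxic metals. Their genes are switched on by zinc through MTF1, a zinc-sensing transcription factor that binds short metal response elements in their promoters. In the gut epithelium they buffer zinc and copper as these enter the cell. The human genes lie in 1 cluster on chromosome 16, and the coding isoforms are so alike that array probes often cannot separate them. In the RefSeq gene order of GRCh38.p14, used here for names and order only, MT4 and MT3 lie at the start of the cluster, followed by MT2A, MT1E, MT1M, MT1A, MT1B, MT1F, MT1G, MT1H and, at its far end, MT1X. Pseudogenes lie between several of them.

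Promoters are shown because the metal response element is the feature these genes are known for. Any link between promoter matches and the array values was not tested. The RefSeq promoter table (GRCh38.p14) held 4 members, MT2A, MT1B, MT1H and MT1X, and MT1A, MT1E, MT1F and MT1G were not matched. The core TGCACNC or TGCGCNC was searched on both strands in the 250 bases before each gene's start, and overlapping matches would each have been counted. The 160 bases next to the start are printed 5′ to 3′, with each match in capitals. A match on the opposite strand therefore reads as its reverse complement.
MT2A promoter (chr16:56608424-56608583, plus strand): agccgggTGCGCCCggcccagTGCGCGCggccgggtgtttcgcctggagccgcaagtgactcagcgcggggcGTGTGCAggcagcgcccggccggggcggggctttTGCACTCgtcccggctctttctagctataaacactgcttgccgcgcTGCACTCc 
MT1B promoter (chr16:56651726-56651885, plus strand): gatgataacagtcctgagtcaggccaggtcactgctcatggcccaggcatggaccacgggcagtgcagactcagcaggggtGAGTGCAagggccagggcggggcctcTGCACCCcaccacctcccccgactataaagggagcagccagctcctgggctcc 
MT1H promoter (chr16:56669654-56669813, plus strand): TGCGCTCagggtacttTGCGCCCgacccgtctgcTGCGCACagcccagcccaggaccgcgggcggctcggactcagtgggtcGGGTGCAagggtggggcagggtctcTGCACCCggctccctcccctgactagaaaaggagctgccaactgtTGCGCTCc 
MT1X promoter (chr16:56682310-56682469, plus strand): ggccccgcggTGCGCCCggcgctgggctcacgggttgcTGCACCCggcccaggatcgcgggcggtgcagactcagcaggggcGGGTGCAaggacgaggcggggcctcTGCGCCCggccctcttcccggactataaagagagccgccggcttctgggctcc

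Within 250 bases MT1H held 8 matches, MT2A 7, MT1X 4 and MT1B 3. Of all 35116 promoters in the table, 24.8% held at least 1 match, 1.58% at least 3, 0.37% at least 4, 0.0313% at least 7 and 0.0171% at least 8. A position was common to MT1B, MT1H and MT1X, where a match began 53 bases before the start, and in MT2A a match began 54 bases before it. MT1H and MT1X also shared the opposite-strand match that began 78 bases before the start, with the letters TGCACCC in both. MT1B had an opposite-strand match that began 79 bases before the start (TGCACTC), and MT2A one at 88 bases (TGCACAC). These matches describe the sequence and were not measured as binding sites.

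Values are log2 GCRMA values, deposited by the authors. A floor of 5 was applied to low values, and 4710 probe sets that reached it on any array were analysed. Of the 8 metallothionein probe sets 7 passed and 1, for MT2A, did not. A probe set floored on both arrays of a comparison has a difference of exactly 0 there. It counts neither as above 0 nor as of opposite sign, which lowers those shares of all analysed probe sets given below. No analysed metallothionein set was floored. On this array a name ending in _f_at marks a probe set whose probes match several members of a family. That suffix was carried by the sets for MT1B, MT1E, MT1F and MT1H and by the joint set, 5 in all. They share targets and are not separate measurements. MT1G (926_at), MT1X (39120_at) and MT2A (39081_at) had sets without a suffix of this kind. Each group had 1 array, so the differences have no replicate check and no p-value is given. As a measure of error, the disagreement between probe sets of the same gene was used, over 339 other genes with at least 2 probe sets measured on all arrays. Its SD for 1 probe set was 0.188 for the RBM35A difference in total RNA, 0.195 in polysomal RNA and 0.239 for the difference between the fractions. It covers probes and not cultures.

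The share of probe sets that reached 5 was 33.8% on the total RNA arrays and 34.2% on the polysomal arrays. RBM35A itself had 0 annotated probe sets, so its expression was not checked on the arrays. Of 14 markers of colon epithelium 13 were analysed, and KRT20 was below 5 on every array. These 13 had median RBM35A differences of 0.01 in total RNA and −0.21 in polysomal RNA, where 11 lay below 0, and MUC2, a goblet cell mucin, was at 1.46 in total RNA; their part in the values below was not tested. HBB was the 1 marker of 7 on the array for haematopoietic cells that was analysed, COL1A1 the 1 of 7 for fibroblasts and endothelium, and 0 of 3 for kidney and liver were. Probe sets along the beta-actin and GAPDH transcripts gave RBM35A+ minus RBM35A− differences in polysomal RNA of −0.86 and −0.79 at the 5′ end against −0.02 and −0.13 at the 3′ end. In total RNA the 5′ differences were −0.05 and −0.03. Between fractions the gap was wider: polysomal minus total RNA at the 5′ end was −4.51 in RBM35A− and −5.32 in RBM35A+ cells for beta-actin and −1.83 and −2.59 for GAPDH. The 3′ probe sets gave −0.30 and −0.27 for beta-actin and −0.16 and −0.14 for GAPDH. The transferrin receptor controls differed from this, with −3.69 and −4.14 at the 5′ end and −3.92 and −4.32 at the 3′ end. Their polysomal values lay below 5. Another probe set of the same gene, 37324_at, read 10.21 and 10.53 in polysomal RNA. Its polysomal minus total differences were −0.85 in RBM35A− and −0.55 in RBM35A+ cells, so the probe sets of this gene disagreed. Where the metallothionein probes lie along their transcripts was not used here, and the part of 5′ signal in the polysomal values below was not tested.

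In polysomal RNA, metallothionein signal was higher in RBM35A+ than in RBM35A− cells for 6 of the 7 analysed probe sets. The median of the 7 was 0.50 on the log2 scale (1.41-fold) there and 0.06 in total RNA. Of these 6 sets, 5 carry the family suffix and share targets, so they are not separate measurements. The sets without the suffix gave 0.96 for MT1G and −0.10 for MT1X in polysomal RNA, and 0.38 and 0.03 in total RNA. Over all analysed probe sets the medians were 0.00 in both fractions, and 50.5% lay above 0 in polysomal RNA. In total RNA 5 of the 7 lay above 0, beside 45.2% of all. In polysomal RNA MT1G differed most and MT1X lay slightly below 0, so the analysed isoforms whose probe sets lack the family suffix did not read alike. In both states all 7 read higher in polysomal than in total RNA, beside 52.9% of analysed probe sets in RBM35A− and 52.7% in RBM35A+ cells. In the same comparison the 5′ differences of the beta-actin and GAPDH controls lay far below their 3′ differences.

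**Figure D1:**
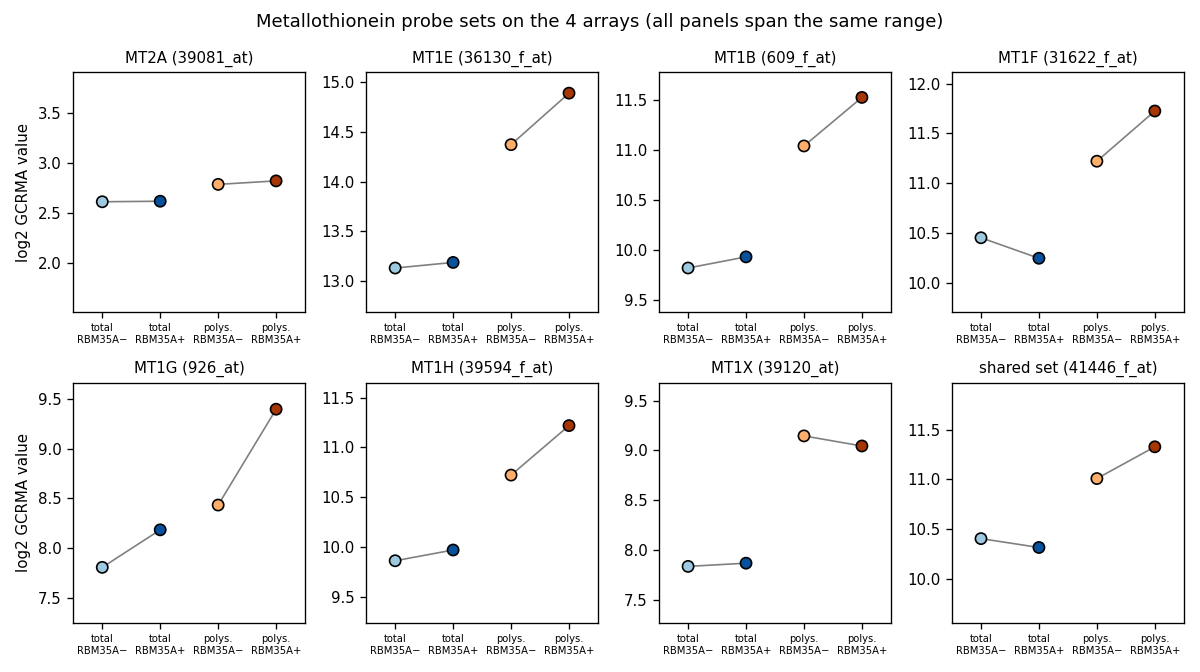
Log2 GCRMA value (vertical axis, the same span in each panel) of the 8 metallothionein probe sets on the 4 arrays (horizontal axis), 1 point per array; grey lines join the arrays of a fraction, and "shared set" is the probe set annotated to several genes. In each of the 7 analysed panels both polysomal points lie above both total RNA points, and the MT1X panel alone has its RBM35A+ polysomal point (9.04) below the RBM35A− one (9.15), whereas MT2A stays between 2.61 and 2.82.

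MT1G, an isoform near the end of the cluster, read 7.81 in total RNA of RBM35A− cells and 8.19 in total RNA of RBM35A+ cells. In polysomal RNA it read 8.43 in RBM35A− and 9.40 in RBM35A+ cells. The RBM35A+ polysomal array was thus the highest of the 4 and the RBM35A− total RNA array the lowest. Its RBM35A difference was 0.38 in total RNA (1.30-fold) and 0.96 in polysomal RNA (1.95-fold), against probe set SDs of 0.188 and 0.195. Among the 4710 analysed probe sets, MT1G ranked 218 from the top in total RNA and 2 in polysomal RNA.

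MT1X, the isoform at the far end of the cluster, read 7.84 in RBM35A− and 7.87 in RBM35A+ cells in total RNA. In polysomal RNA it read 9.15 and 9.04 in the same order. The arrays of each fraction thus lay close together, and the fractions lay apart. Its RBM35A differences of 0.03 and −0.10 were within 1 probe set SD of 0 in both fractions. In polysomal RNA the MT1G difference exceeded that of MT1X by 1.06, where the SD of a gap between 2 probe sets was 0.276. In total RNA the same gap was 0.34, with an SD of 0.266.

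MT1E, MT1B, MT1F and MT1H are isoforms spread along the cluster, and their sets all carry the family suffix. MT1E read 13.13 and 13.19 in total RNA and 14.37 and 14.89 in polysomal RNA, RBM35A− first. MT1B read 9.82 and 9.93 in total RNA and 11.04 and 11.53 in polysomal RNA. MT1H read 9.86 and 9.97 in total RNA and 10.72 and 11.22 in polysomal RNA. For these isoforms the order of the arrays was the same, with RBM35A+ polysomal RNA highest, RBM35A− polysomal RNA next and the total RNA arrays close together below. MT1F read 10.45 and 10.25 in total RNA and 11.22 and 11.72 in polysomal RNA, so RBM35A+ was the lower array in total RNA and the higher in polysomal RNA. The joint set for MT1F, MT1G, MT1M and MT1P3 (41446_f_at) followed the order of MT1F, with 10.41 and 10.32 in total RNA and 11.01 and 11.33 in polysomal RNA.

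In polysomal RNA the differences of MT1E, MT1F, MT1H and MT1B were 0.52, 0.50, 0.50 and 0.49, ranks 54, 61, 66 and 70 of 4710. The joint set gave 0.32 (rank 303), although MT1G and MT1F, both in its annotation, gave 0.96 and 0.50 by their other sets. The SD among the 5 sets with the family suffix was 0.082, smaller than the 0.195 between probe sets of 1 gene. Their median exceeded the MT1X difference by 0.60 and lay 0.46 below that of MT1G. In total RNA the 5 sets ranged from −0.21 for MT1F to 0.11 for MT1B, with 3 above 0 and 2 below.

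**Figure D2:**
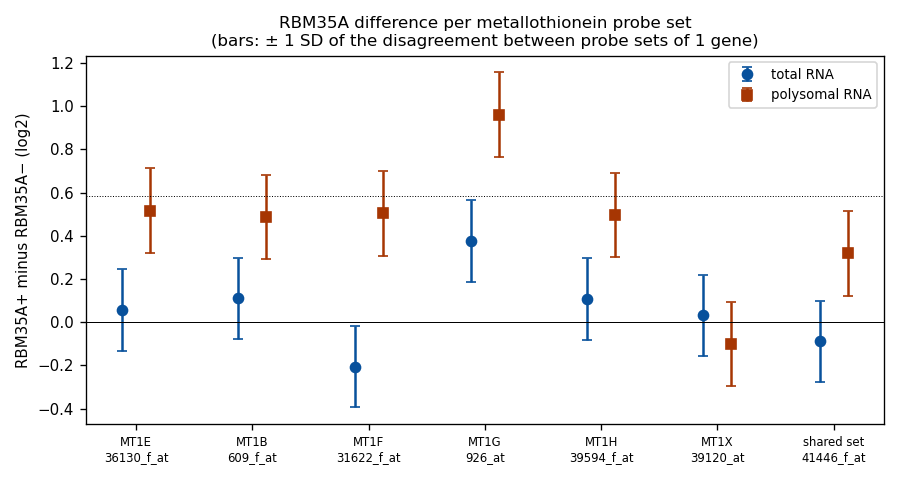
RBM35A+ minus RBM35A− difference (vertical axis, log2) of the 7 analysed metallothionein probe sets in total RNA (circles) and polysomal RNA (squares); bars are ± 1 SD of the disagreement between probe sets of 1 gene (0.188 and 0.195), and the dotted line marks 1.5-fold. MT1G in polysomal RNA (0.96) is the 1 point past the line, the other squares lie between 0.32 and 0.52 apart from MT1X at −0.10, and the circles lie between −0.21 and 0.38.

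At 1.5-fold, 1 of the 7 probe sets, MT1G, was higher in polysomal RNA of RBM35A+ cells and 0 were lower. Of all analysed probe sets 0.637% were 1.5-fold higher and 1.59% lower in this comparison. Among the 1897 probe sets with a mean of 8 or more, a bound chosen after the values were seen, 0.369% were 1.5-fold higher. Without MT1G the count was 0 of 6. In total RNA 0 of 7 were 1.5-fold higher and 0 lower, against 1.46% and 0.849% of all analysed probe sets. For the family the count past 1.5-fold therefore rests on MT1G. The median was 0.49 without it and 0.50 with it. This could hardly differ, since 5 of the remaining 6 sets share targets and lay between 0.32 and 0.52.

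**Figure D3:**
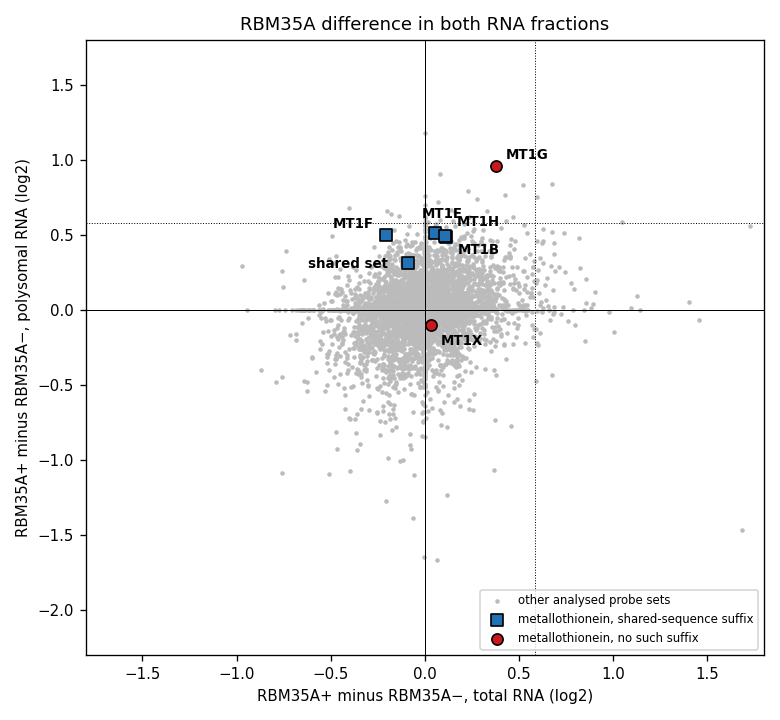
RBM35A+ minus RBM35A− difference in polysomal RNA (vertical axis, log2) against that in total RNA (horizontal axis, log2) for all 4710 analysed probe sets (grey) and the 7 metallothionein probe sets, with squares for sets with the family suffix and circles for the others; dotted lines mark 1.5-fold higher. Of the metallothioneins, 5 lie between 0.32 and 0.52 on the vertical axis, with MT1G above them at 0.96 and MT1X below at −0.10.

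The RBM35A difference in polysomal RNA minus that in total RNA had a median of 0.41 over the 7 probe sets, against 0.01 over all analysed probe sets. Of the 7, 6 lay above 0 beside 52% of all, and 5 of these 6 share targets. This difference between the fractions was 0.71 for MT1F, 0.58 for MT1G, 0.46 for MT1E, 0.41 for the joint set, 0.39 for MT1H, 0.38 for MT1B and −0.13 for MT1X. MT1F was the 1 set at 1.5-fold or more, with MT1G just short of it, and 0 were as low. Of all analysed probe sets 1.44% were as high and 2.46% as low. The MT1G and MT1X sets, which lack the family suffix, had opposite signs, so their median of 0.23 describes neither, and their count was 0. With all 4 arrays quantile normalized together the count over the 7 was 2. MT1F and the joint set had total and polysomal differences of opposite sign, as did MT1X at values near 0 and 33.2% of all analysed probe sets. MT1X was the lowest of the 7 in this quantity too, by 0.51 from MT1B, 0.72 from MT1G and 0.84 from MT1F, where the SD of such a gap was 0.338.

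Polysomal and total RNA were then compared within each state. Polysomal RNA read higher by a median of 0.86 (1.81-fold) over the 7 probe sets in RBM35A− cells, and the differences ran from 0.60 for the joint set and 0.62 for MT1G to 1.24 for MT1E and 1.31 for MT1X. In RBM35A+ cells the median was 1.25 (2.37-fold), and the values ran from 1.01 for the joint set and 1.18 for MT1X to 1.60 for MT1B and 1.70 for MT1E. All 7 passed 1.5-fold in each state, against 24.8% of analysed probe sets in RBM35A− and 25.2% in RBM35A+ cells, whose medians were 0.05 and 0.04. MT1X was the highest of the 7 in RBM35A− cells and the next to lowest in RBM35A+ cells. The SD of 1 probe set for this quantity was 0.697 and 0.784, so the order of the members within a state was not resolved. In RBM35A− cells the joint set and MT1G lay within 1 such SD of 0. Of the 7 sets, 5 share targets, so the count of 7 does not stand for separate measurements. The fractions were also prepared and normalized separately. In RBM35A− cells 5 of the 7 passed 1.5-fold when all 4 arrays were quantile normalized together, with MT1G at 0.51 and the joint set at 0.52, and also 5 when the median of all analysed probe sets was subtracted, with MT1G at 0.57 and the joint set at 0.55. Polysomal RNA also had the lower 5′ control signal (beta-actin −4.51 and GAPDH −1.83 in RBM35A− cells), whose part in these differences was not tested.

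**Figure D4:**
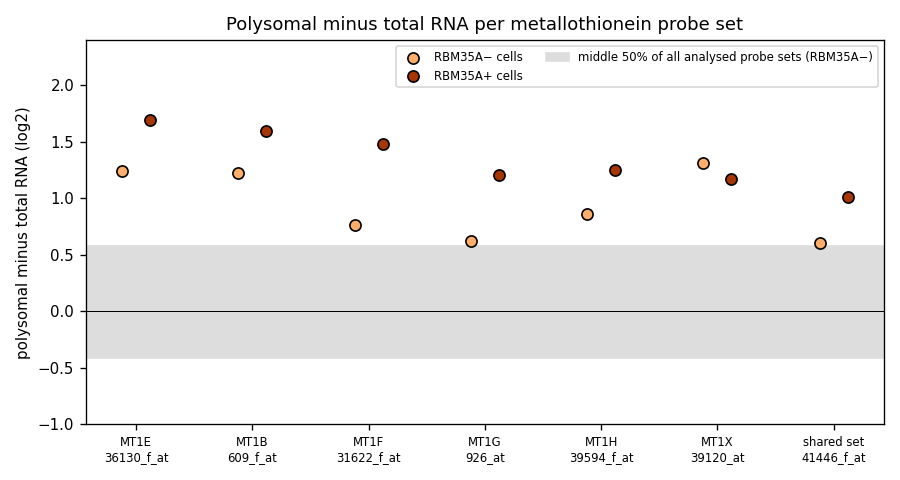
Polysomal minus total RNA difference (vertical axis, log2) of the 7 analysed metallothionein probe sets in RBM35A− cells (light points) and RBM35A+ cells (dark points); the grey band is the middle 50% of all analysed probe sets in RBM35A− cells, from −0.42 to 0.58. All points lie above the band, and MT1X is the 1 probe set whose RBM35A+ point (1.18) lies below its RBM35A− point (1.31).

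MT2A, usually the most widely expressed human isoform, read 2.61 and 2.62 in total RNA and 2.79 and 2.82 in polysomal RNA, RBM35A− first. All 4 values lay far below the floor of 5, so its differences are not given. This describes probe set 39081_at and sets no limit on MT2A transcripts that it may not detect.

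The other metallothionein loci of the cluster on the array were MT3, a brain isoform, and MT4, an isoform of stratified squamous epithelium. A family set for MT3 (870_f_at) read 7.80 and 7.98 in total RNA and 8.31 and 8.54 in polysomal RNA, a difference of 0.18 and 0.23, while its other set (1346_at) was below 5 on all arrays. MT4 had sets without the suffix: 31975_at gave −0.15 in total and 0.20 in polysomal RNA, and 521_at gave −0.74 (5.75 to 5.01) and 0.40 (6.52 to 6.91). These MT4 sets did not read alike in total RNA. Whether they also take up transcripts of other metallothioneins was not tested. In polysomal minus total RNA the used sets of MT3 and MT4 gave 0.51 and 0.81 in RBM35A− cells, both above 0 as for the members. Their polysomal RBM35A differences were positive and smaller than those of MT1E, MT1B, MT1F and MT1H. The polysomal minus total difference of differences was 0.05 for MT3 (870_f_at), 0.35 for MT4 by 31975_at and 1.14 by 521_at. The value of 521_at was thus above that of every member. Its −0.74 in total RNA was past 1.5-fold lower, with the RBM35A+ value of 5.01 close to the floor.

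Genes of zinc, copper and redox handling had no member past 1.5-fold in either fraction. Of zinc transporters and MTF1, 7 of 9 on the array were analysed, with a median of 0.09 in total RNA and 0.03 in polysomal RNA, where 4 lay above 0. MTF1, the zinc-sensing activator of the family, was at −0.07 in total and 0.44 in polysomal RNA. It read 5.25 and 5.18 in total RNA and 7.75 and 8.19 in polysomal RNA, so it was also among the genes higher in polysomal RNA, by 2.50 and 3.01. The zinc importer SLC39A6 was at 0.37 in polysomal RNA, and the lowest were SLC30A9 at −0.29 and SLC39A7, which releases zinc from the secretory pathway, at −0.06. SLC30A1, the zinc exporter that MTF1 also activates, was at −0.04 in total and 0.25 in polysomal RNA.

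Copper and iron genes (8 of 14 analysed) had a median of 0.01 in total RNA and of 0.14 in polysomal RNA, where 6 of the 8 lay above 0. The copper chaperone SCO2 (0.50) and the transferrin receptor TFRC (0.32) were highest there, and the iron regulatory protein ACO1 (−0.56) and the copper chaperone ATOX1 (−0.29) lowest. Glutathione and oxidative stress genes (19 of 22 analysed) lay on the other side of 0, with medians of −0.11 and −0.10 and with 12 below 0 in polysomal RNA. Thioredoxin (TXN, 0.19) and the quinone reductase NQO1 (0.13) were highest, and the redox activator NFE2L2 (−0.51) and the peroxidase GPX4 (−0.41) lowest. None of these lists (0 members) passed 1.5-fold in total RNA either.

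Heat shock genes (7 of 11 analysed) had medians of −0.09 in total and −0.02 in polysomal RNA. The chaperones HSPB1 (0.21) and HSPE1 (0.13) were highest in polysomal RNA, and the heat shock activator HSF1 (−0.39) and the co-chaperone DNAJB1 (−0.18) lowest. HMOX1, induced by heme and heavy metals, was below 5 on every array, as were the stress-induced chaperone HSPA6 and the glucocorticoid receptor NR3C1. The sets for HSPA8, HSPH1 and HSPA1B of the heat shock list were also below 5 on every array. Such readings describe these probe sets and set no limit on transcripts that they may not detect. Of 9 glucocorticoid targets on the array 1 was analysed, TSC22D3, at 0.20 in total RNA with 1 floored array and at the floor on both polysomal arrays. Of the genes that flank the cluster, 3 of 6 were analysed, with NUP93, a nuclear pore protein, at 0.30 in total and 0.39 in polysomal RNA, HERPUD1, a protein of the endoplasmic reticulum stress response, at −0.24 in both, and NUDT21, a polyadenylation factor, at −0.36 in total RNA and at the floor on both polysomal arrays.

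**Figure D5:**
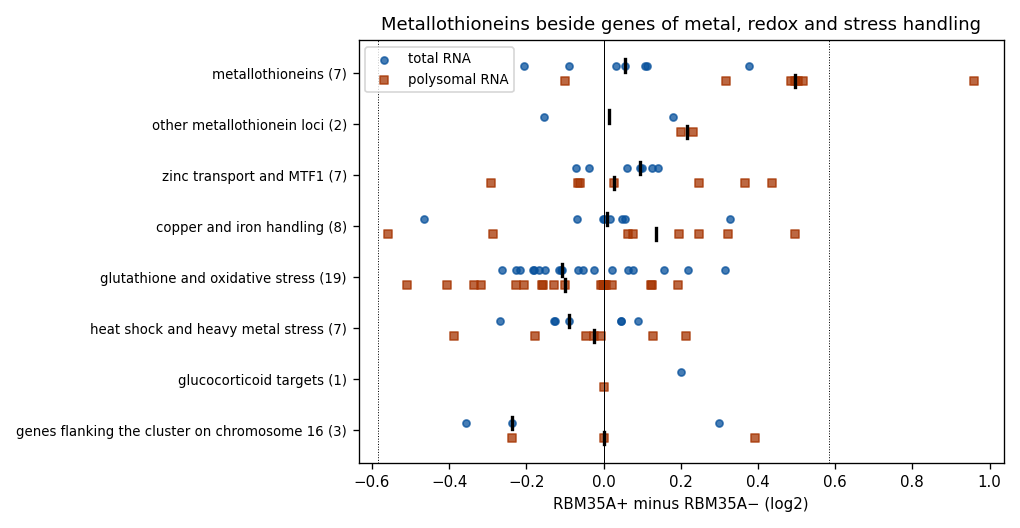
RBM35A+ minus RBM35A− difference (horizontal axis, log2) in total RNA (circles) and polysomal RNA (squares) of the 7 metallothionein probe sets and of the analysed genes of 7 other lists (vertical axis, number analysed in brackets); black bars are medians, shown for lists of 2 or more, and dotted lines mark 1.5-fold. The polysomal median is 0.50 for the metallothioneins and between −0.10 and 0.22 for the other lists with at least 2 genes.

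The genes with the profile most like that of the family were found by the Euclidean distance between 4-array profiles, each centred on its own mean, over 3583 other genes, with the median metallothionein profile as reference. By this rule the 5 smallest distances were those of LRRC37A3 (0.114), FAM193A (0.115), TAP1 (0.118), ATP5ME (0.150) and OTUD3 (0.151). The distances of LRRC37A3, FAM193A and OTUD3 come from the floor: their total RNA values all lay below 5, and without the floor their polysomal minus total differences in RBM35A− cells were 3.26, 2.16 and 2.94, unlike the 0.86 of the family. Among the 2998 genes at 5 or more on all arrays, a restriction chosen after the values were seen, the nearest were TAP1, ATP5ME, LRPAP1 (0.171), TMED3 (0.171) and CREB1 (0.173). TAP1, the peptide transporter of antigen presentation, read 5.07 and 5.17 in total RNA and 6.05 and 6.45 in polysomal RNA, and ATP5ME, an ATP synthase subunit, read 12.83 and 12.84 in total RNA and 13.71 and 14.10 in polysomal RNA. Of the members themselves MT1H (0.152) and MT1F (0.188) lay nearest to the family median, and MT1X (0.436) and MT1G (0.487) farthest from it. The members define this median and 5 of the 7 sets share targets, so these distances partly follow from how it was built. With 4 arrays, likeness of profiles describes these arrays alone.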

How the data were processed

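RNA of LS180 cells was measured on 4 HG-U95Av2 arrays, 1 per combination of RBM35A state and RNA fraction, from 10 µg of RNA each per the labels' protocols. The log2 values are as deposited; the submitters' processing notes name GCRMA, with no version, and no genome build is given in the sources used here. Sorted values differed by at most 4.29e-06 within total RNA, 6.61e-06 within polysomal RNA and 0.227 between fractions, so each pair had been quantile normalized by itself, which removes a shift of most genes within a pair. Signal over background and the single array per group limit precision.

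Probe sets were named from the array annotation, which gave 10943 of 12559 non-control probe sets 1 symbol, 546 several and 1070 none; 10934 were matched by gene ID to RefSeq (GRCh38.p14). The 67 controls were left out. Differences were taken on the log2 scale with a floor of 5 and called at 1.5-fold, and genes of the lists were represented by their probe set of highest mean. No test was run, since each group held 1 array. Calculations used Python 3.11.15 with pandas 2.3.3 and numpy 2.4.6, and functions were tested on simulated data. Alternatives were other floors and filters, other choices of probe set, joint quantile normalization, centring and removal of the fraction trend.

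The members and lists were chosen with earlier results of these data known. Every member probe set is named; of each list, the 2 highest and 2 lowest genes in polysomal RNA and any past 1.5-fold in an RBM35A comparison; and the 5 genes of most similar profile. Other genes were named after their values were seen: SLC30A1, HMOX1, HSPA6, HSPA8, HSPH1, HSPA1B, NR3C1, KRT20, MUC2, LRPAP1, TMED3 and CREB1. A planned list of genes with short proteins was not used here.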

Additional observations from a re-analysis of the deposited data

Results flagged for a closer look

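For 3 of the 7 analysed metallothionein probe sets the RBM35A difference had opposite signs in total and polysomal RNA, as it had in 33.2% of all analysed probe sets. That share is lowered by probe sets floored on both arrays of a fraction, which cannot count. The polysomal minus total difference of differences was 0.71 for MT1F (31622_f_at), 0.41 for the set annotated to MT1F, MT1G, MT1M and MT1P3 (41446_f_at), and −0.13 for MT1X (39120_at). Of these, MT1F and the joint set share targets and are not separate measurements, and the MT1X value is smaller than the 0.239 by which 1 probe set varied. The differences between fractions were not tested, since each group had 1 array.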

How the results depend on the processing

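The median RBM35A difference of the metallothioneins lay between 0.43 and 0.50 in polysomal RNA and between 0.01 and 0.20 in total RNA over the main setting and all 12 alternatives. That of the differences between fractions lay between 0.23 and 0.42. Several alternatives could not move these medians. Every analysed member read above 6 on all arrays, so floors of 4 and 6 and no floor changed nothing. The choices by 1 symbol, by highest mean and by mean of probe sets kept the same 6 sets. The 0.43, 0.20 and 0.23 are midpoints of MT1G and MT1X alone, which had opposite signs in polysomal RNA and in the difference between fractions. The polysomal minus total median stayed between 0.77 and 1.04 in RBM35A− cells and between 1.18 and 1.36 in RBM35A+ cells over the 11 alternatives that apply. Each single member kept its direction wherever it could be computed, except MT1X in total RNA, which ran from −0.01 to 0.03. The count 1.5-fold higher in polysomal RNA was 0 without the MT1G probe set, an alternative chosen after seeing the data. For the difference between fractions that count was 0 with only probe sets without a suffix for shared sequence and 2 with all 4 arrays quantile normalized together, where MT1G passed at 0.61. In both polysomal minus total comparisons it was 2 with only probe sets without such a suffix, where 2 members remain, and in RBM35A− cells it was 5 with joint quantile normalization and 5 with the median of all analysed probe sets subtracted. No paired analysis was possible because each group had 1 array. A single array per group limits every value, and probe sets that share targets cannot assign signal to 1 isoform.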
